A study of Rattus norvegicus with 9 samples.

Results

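The 10 genes described here form a set named for the uptake and efflux of platinum drugs and aminoglycosides. Transport of these drugs was not measured, and the set does not show that each product carries them. They are the copper carriers Slc31a1 and Slc31a2, the copper ATPases Atp7a and Atp7b, the ATP-binding cassette (ABC) pumps Abcb1a, Abcb1b, Abcc1, Abcc4 and Abcc5, and the endocytic receptor Lrp2. They were taken by symbol from a table of 19608 genes, and all 10 were found. Their Entrez identifiers in the table are 171135 (Slc31a1), 298091 (Slc31a2), 24941 (Atp7a), 24218 (Atp7b), 170913 (Abcb1a), 24646 (Abcb1b), 24565 (Abcc1), 170924 (Abcc4), 116721 (Abcc5) and 29216 (Lrp2). HEI-OC1 is an immortalized line from the organ of Corti of the mouse cochlea, widely used in work on ototoxicity. The sample labels and the identifiers above are nevertheless those of rat. Compared were 3 RNA sequencing libraries of cells given phosphate-buffered saline (PBS), 3 of cells given neomycin, an aminoglycoside antibiotic, and 3 of cells given cisplatin, a platinum drug that crosslinks DNA, each for 24 h. Both drugs damage hearing. The labels call all 9 samples a hair cell-like line and give no dose. Nor do they tie the samples of a group to separate cultures, so a p-value here reflects the spread among the libraries, which may be technical.

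Cisplatin is chemically a small platinum complex and can use the copper pathway. In human and rodent cells SLC31A1 (CTR1) brings copper, and with it some platinum, through the plasma membrane, SLC31A2 (CTR2) sits mainly on internal membranes, and the ATPases ATP7A and ATP7B load copper into the secretory pathway and export it. ABC pumps of the B and C subfamilies use ATP to expel drugs, drug conjugates and other organic anions. Megalin, the product of Lrp2, takes up aminoglycosides by endocytosis in the kidney and is present in the inner ear, where mature hair cells also admit these drugs through the mechanotransduction channel.

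Values are FPKM (fragments per kilobase of gene model, scaled to the mapped fragments of each library). With rat labels on a mouse line, a very low value may mean little RNA or reads not placed on that gene. Which of these holds was not tested. The scaling totals of the libraries, recovered from the values, lay between 27516629 and 40221089 reads. The first principal component separated cisplatin from the other groups and the second separated neomycin from PBS, with no library apart from its group. Of 12 matched hair cell markers 9 had a mean under 0.1 FPKM, among them Pou4f3 and Otof, while Myo6 was at 14.5 ± 0.95 FPKM (SD, n = 3) in PBS and fell with cisplatin to 7.16 ± 0.45 FPKM (log2 fold change -0.92, limma adjusted p = 1.5e-08). Myo7a rose with neomycin from 0.883 ± 0.043 to 2.54 ± 0.11 FPKM (0.91, limma adjusted p = 9.3e-08). It also rose with cisplatin, to 1.33 ± 0.12 FPKM (0.31, limma adjusted p = 0.00097). The 2 tested hair cell markers thus moved in opposite directions with cisplatin, and Myo6 was not called with neomycin (0.04, limma adjusted p = 0.579). The 8 fibroblast markers summed to 4780 to 5171 FPKM in PBS, 4077 to 4128 FPKM in neomycin and 1332 to 1482 FPKM in cisplatin. Nearly all of that sum is Col1a1, Col1a2 and Col3a1, whereas in PBS Dcn averaged 0.157 FPKM and Lum 1.32 FPKM. These markers do not settle whether the label of a hair cell-like line holds. Of 7 tested fibroblast markers 6 fell and 1 rose with cisplatin (median -0.98), whereas 4 rose and 2 fell with neomycin (median 0.24), with Pdgfra, Pdgfrb, Thy1 and Lum higher and Col1a1 and Col1a2 lower. Supporting cell markers summed to at least 25.3 FPKM in PBS, 15.4 to 17.9 FPKM in neomycin and 19.3 to 20.4 FPKM in cisplatin, with Jag1 lower with both drugs, Sox9 lower with cisplatin and Lfng higher with cisplatin (2.41 ± 0.37 to 4.97 ± 0.24 FPKM). Leukocyte markers summed to at most 0.29 FPKM in PBS and neomycin and to 1.59 to 1.94 FPKM in cisplatin, nearly all of it Cd68, and endothelial markers, nearly all Tek, to 1.90 to 2.37 FPKM in PBS, 2.21 to 2.44 FPKM in neomycin and 0.36 to 0.63 FPKM in cisplatin (Tek -1.16, limma adjusted p = 1.5e-08). The part of these shifts in the results below was not tested, and in bulk RNA fewer cells of a type and less RNA per cell cannot be told apart.

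Upstream sequences of some members that moved are shown because they lie next to the annotated start of the gene. That start need not be where transcription starts in these cells. Metal response elements, bound by the metal-responsive factor MTF1, are also a natural feature to look for at copper genes. RefSeq windows of the rat build GRCr8 were found for 9 of the 10 genes, and the letters below are the part of the 250 upstream bases that lies outside the RefSeq gene span. They are rat sequences, whereas HEI-OC1 is a mouse line. Abcb1b had the largest rise with cisplatin, Lrp2 fell with it, Atp7b was lower with it, and Slc31a2 rose with both drugs. Abcc1, which fell with cisplatin, also had such a stretch, of 186 bases. It held no match to the motifs marked below and is not shown. The windows are chr4:26280157-26280279 (minus strand) for Abcb1b, chr3:74754536-74754785 (minus strand) for Lrp2, chr16:76654475-76654724 (plus strand) for Atp7b and chr5:80753368-80753588 (plus strand) for Slc31a2. Capitals mark CCAAT boxes (CCAAT), GC boxes (GGGCGG), AP-1 sites (TGANTCA) and metal response cores (TGCGCNC or TGCACNC), each on either strand, and the marked matches do not overlap.
Abcb1b: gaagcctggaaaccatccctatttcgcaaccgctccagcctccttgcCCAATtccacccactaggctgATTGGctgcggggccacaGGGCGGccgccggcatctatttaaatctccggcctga
Lrp2: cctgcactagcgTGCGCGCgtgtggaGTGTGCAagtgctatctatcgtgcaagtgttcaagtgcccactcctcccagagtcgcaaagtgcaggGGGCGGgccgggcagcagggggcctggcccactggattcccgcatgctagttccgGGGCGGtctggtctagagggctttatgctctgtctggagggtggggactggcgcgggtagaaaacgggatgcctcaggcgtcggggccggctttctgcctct
Atp7b: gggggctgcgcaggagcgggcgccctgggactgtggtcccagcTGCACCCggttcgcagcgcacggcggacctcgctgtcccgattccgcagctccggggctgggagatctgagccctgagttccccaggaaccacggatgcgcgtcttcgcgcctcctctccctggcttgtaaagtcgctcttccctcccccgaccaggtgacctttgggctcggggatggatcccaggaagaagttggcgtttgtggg
Slc31a2: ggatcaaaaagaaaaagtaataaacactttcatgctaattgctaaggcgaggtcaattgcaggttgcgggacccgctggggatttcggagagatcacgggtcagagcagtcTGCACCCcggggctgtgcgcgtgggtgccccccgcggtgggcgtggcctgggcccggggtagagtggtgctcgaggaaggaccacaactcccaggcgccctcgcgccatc
The Abcb1b stretch holds 2 CCAAT boxes, 1 of them on the reverse strand, and 1 GC box. The Lrp2 stretch holds 2 GC boxes and 2 metal response cores, and the Atp7b and Slc31a2 stretches hold 1 metal response core each. Over the whole 250 upstream bases, 5 of the 9 members held a metal response core (Lrp2, Abcb1a, Slc31a2, Abcc4 and Atp7b), against 20.6% of 33465 rat promoters. A GC box was found in 6 of 9 members against 30.5% of promoters, a CCAAT box in 2 of 9 against 34%, and an AP-1 site in 1 of 9, that of Abcb1a, against 6.34%. For Abcb1a, Slc31a1, Abcc4 and Atp7a all 250 bases lie inside the RefSeq gene span, so their matches are not upstream of the annotated gene. Members that rose and members that fell with cisplatin were both among those with a metal response core and those with a GC box. A match is a description of letters and not a measured binding site.

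**Figure D1:**
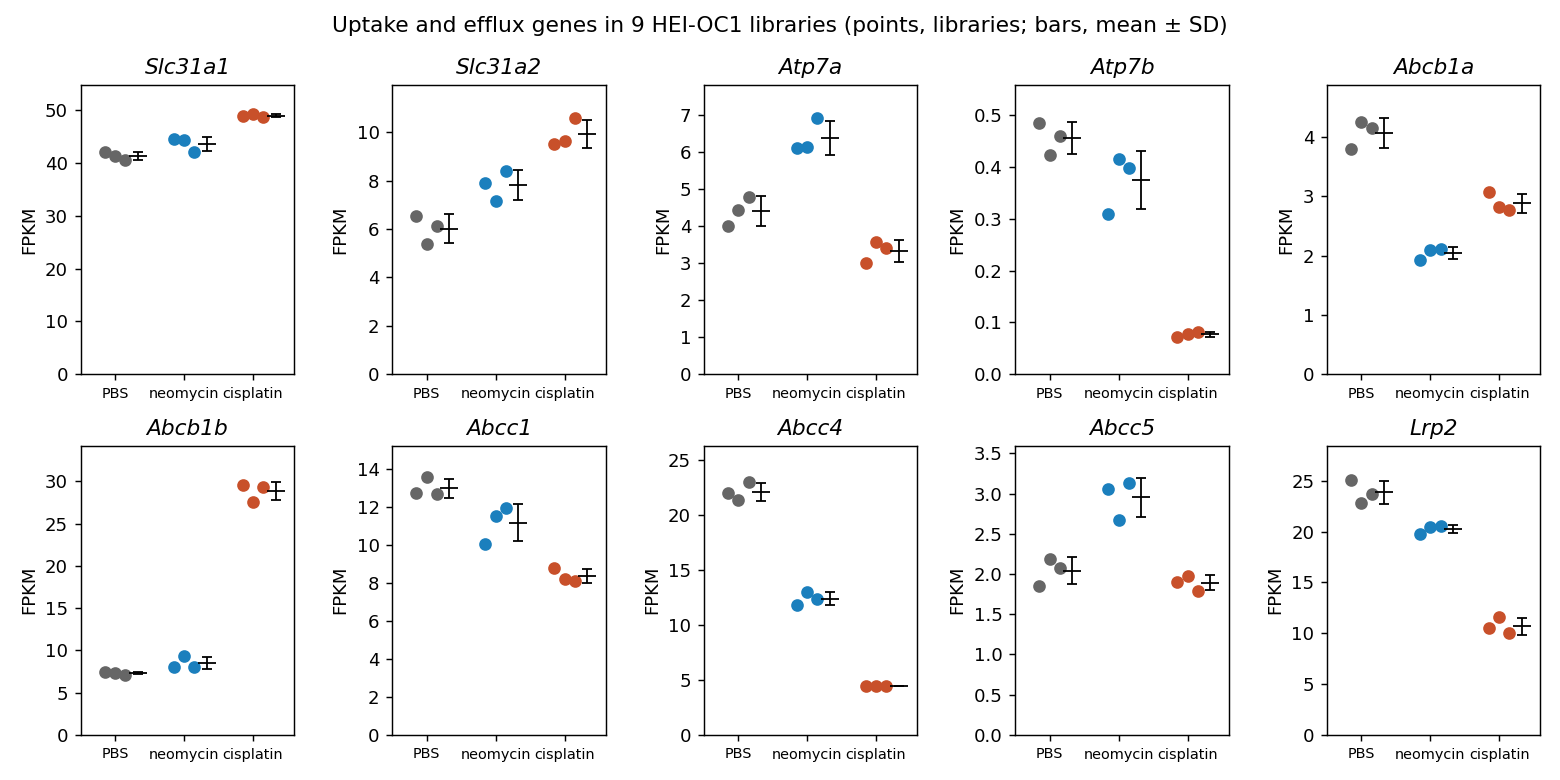
FPKM of the 10 genes in each of the 9 libraries (points) with the mean and SD of the 3 libraries of each group (bars), on linear axes that start at 0. Abcb1b stands at 27.6 to 29.6 FPKM in cisplatin against 7.15 to 7.42 FPKM in PBS, and Abcc4 at 4.43 to 4.47 FPKM against 21.4 to 23.0 FPKM.

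With cisplatin the pump genes moved in opposite directions. As ratios of mean FPKM to PBS, Abcb1b mRNA rose 3.96-fold and Abcc4 mRNA fell 4.99-fold, while Lrp2 fell 2.23-fold. The copper carriers Slc31a1 and Slc31a2 rose and both copper ATPases were lower. With neomycin the changes were smaller, and they took in a fall of Abcb1a and Abcc4 and a rise of Atp7a, Abcc5 and Slc31a2. The genes were tested with limma on log2(FPKM + 1) over the 10532 genes whose mean reached 1 FPKM, and log2 fold changes below are on that scale, where the added 1 makes them smaller in size than ratios of mean FPKM. Of the 10 members 9 passed this filter, and Atp7b did not.

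Of the 9 tested members 8 were called between cisplatin and PBS (limma adjusted p under 0.05), where 78.0% of all tested genes were called, so the count itself does not set the members apart. Of these, 3 rose against 47.5% of all genes and 5 fell against 30.5%. At least 2-fold changes were found in 3 of 9 members against 9.29% of all genes, 1 higher (5.92%) and 2 lower (3.36%). The groups did not overlap for 8 of 9 members, against 80.1% of all genes. Rescaling the libraries by the median of ratios changed the split of all genes from 5001 higher and 3215 lower to 4070 and 4031, and left the members at 3 and 5. The median tested gene moved by 0.12 on the log2 scale between PBS and cisplatin, and by 0.01 after that rescaling, and the median of the 9 members was -0.32. Between neomycin and PBS 8 of 9 members were called against 66.2% of all genes, 4 higher (37.5% of all genes) and 4 lower (28.7%), and none was 2-fold changed (1.73% of all genes, 1.08% higher and 0.646% lower). The groups did not overlap for any of the 9 members (67.4% of all genes). The members' median was 0.08 and that of all tested genes 0.04. Both drug comparisons use the same PBS libraries, so the drugs are set against each other below by the direct test of cisplatin against neomycin, in which all 9 members were called (81.6% of all genes), 4 higher (45.0%) and 5 lower (36.6%). At least 2-fold differences between the drugs were found in 2 of 9 members (13.4%), 1 higher (7.53%) and 1 lower (5.92%), and the groups did not overlap for any of the 9 (83.3%).

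**Figure D2:**
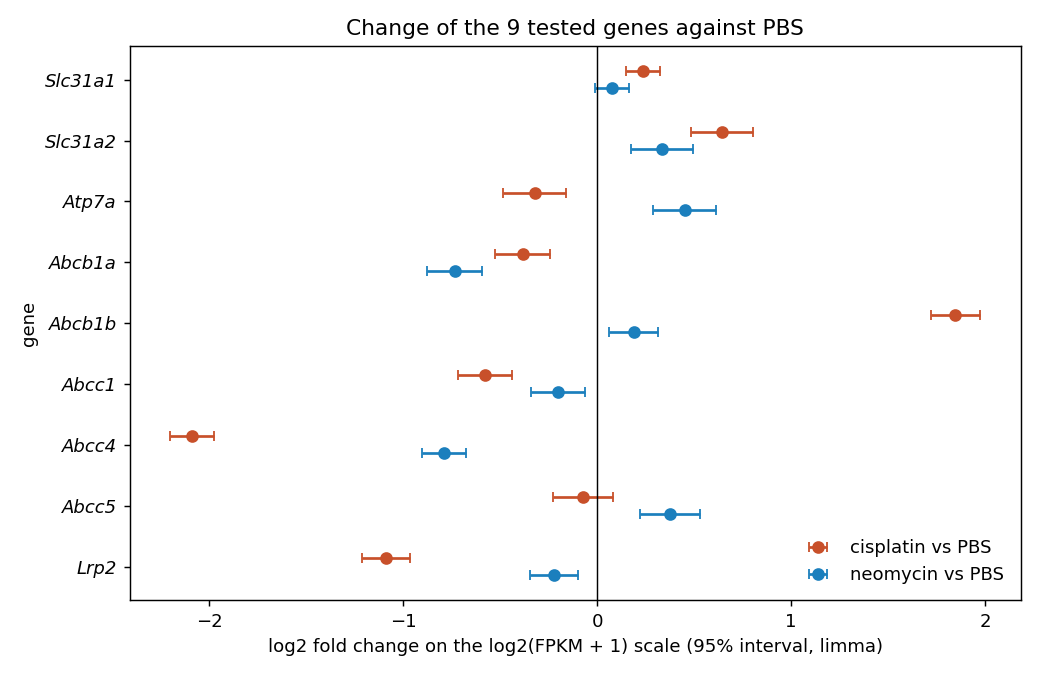
Log2 fold change of the 9 tested genes against PBS on the log2(FPKM + 1) scale, with cisplatin and neomycin side by side and 95% limma intervals as bars. Abcb1b (1.85) and Abcc4 (-2.09) lie farthest from 0 with cisplatin, and the points for Atp7a lie on opposite sides of 0.

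Among the genes for uptake, Slc31a1 was the most abundant member. It read 42.1, 41.4 and 40.6 FPKM in PBS replicates 1 to 3, 44.5, 44.4 and 42.2 FPKM in neomycin and 49.0, 49.4 and 48.6 FPKM in cisplatin. All cisplatin libraries were above all others, and the lowest neomycin library lay just above the highest PBS library. The rise with cisplatin was 1.18-fold as a ratio of mean FPKM (log2 fold change 0.24 ± 0.04 SE, limma adjusted p = 9.6e-05), and it was smaller after median-of-ratios scaling (0.11, adjusted p = 0.0301) and not called under quantile normalization (0.05, adjusted p = 0.259). Against PBS the neomycin value was 0.08 ± 0.04 on the log2 scale (95% interval -0.011 to 0.16, adjusted p = 0.113). Cisplatin stood 0.16 ± 0.04 above neomycin (limma adjusted p = 0.0021), a call that median-of-ratios scaling ended (0.09, adjusted p = 0.0691) and a direction that quantile normalization turned (-0.031, adjusted p = 0.466).

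Slc31a2, the neighbour of Slc31a1 in the rat genome with no gene lying wholly between them, was less abundant and moved more. It was at 6.54, 5.37 and 6.13 FPKM in PBS, 7.90, 7.16 and 8.42 FPKM in neomycin and 9.52, 9.66 and 10.6 FPKM in cisplatin. The 3 groups did not overlap and stood in the order PBS, neomycin, cisplatin. As ratios of mean FPKM it rose 1.65-fold with cisplatin (log2 fold change 0.64 ± 0.07, limma adjusted p = 2.2e-06) and 1.30-fold with neomycin (log2 fold change 0.33 ± 0.07, adjusted p = 0.00138). The difference between the drugs was also called (0.31 ± 0.07, adjusted p = 0.00155).

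Lrp2, a very long mRNA for the endocytic receptor megalin, had the most reads of the 10 genes in PBS. Its level was 25.1, 22.8 and 23.7 FPKM in PBS, 19.8, 20.5 and 20.5 FPKM in neomycin and 10.5, 11.6 and 9.98 FPKM in cisplatin. No cisplatin library came near a library of another group, and every neomycin library was under every PBS library. The fall with cisplatin was -1.09 ± 0.06 on the log2 scale (limma adjusted p = 6.1e-10), the 269th largest fall of 10532 genes. With neomycin it was -0.22 ± 0.06 (adjusted p = 0.00372), and cisplatin stood -0.87 ± 0.06 below neomycin (adjusted p = 4.8e-09).

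The copper ATPases answered the drugs differently. Atp7a, which moves copper through the Golgi and out of most cell types, was at 3.99, 4.41 and 4.79 FPKM in PBS, 6.10, 6.12 and 6.90 FPKM in neomycin and 2.99, 3.56 and 3.40 FPKM in cisplatin. Neomycin libraries were all above PBS and cisplatin libraries all below. The rise with neomycin was 0.45 ± 0.08 on the log2 scale (limma adjusted p = 0.00013) and the fall with cisplatin -0.32 ± 0.08 (adjusted p = 0.00139). The 2 drug groups differed by -0.77 ± 0.08 (cisplatin against neomycin, adjusted p = 2.9e-07). Relative to the importer, the FPKM ratio of Atp7a to Slc31a1 was 0.106 ± 0.012 (SD, n = 3) in PBS, 0.146 ± 0.015 in neomycin and 0.0677 ± 0.0058 in cisplatin.

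Atp7b, the copper exporter best known from liver, was scarce. It read 0.485, 0.424 and 0.461 FPKM in PBS, 0.310, 0.416 and 0.399 FPKM in neomycin and 0.0715, 0.0781 and 0.0817 FPKM in cisplatin. These values rest on 111 to 134 recovered reads per PBS library, 67 to 104 per neomycin library and 18 to 25 per cisplatin library. The cisplatin libraries were far under all others, and the PBS and neomycin libraries lay close together without overlap. The mean FPKM in cisplatin was 5.92-fold lower than in PBS, the largest ratio among the 10 members. Since the gene was below the filter, it was tested only in the alternatives without a filter. There the fall with cisplatin was called on log2(FPKM + 1), a scale that shrinks a gene this low (-0.44 ± 0.03, limma adjusted p = 8.2e-06), and on recovered reads with voom (-2.53 ± 0.27, adjusted p = 4.8e-07), a fit added after the values were seen. Neomycin against PBS was not called in either (adjusted p = 0.0656 and 0.264).

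Abcb1a and Abcb1b are the paired rodent genes for P-glycoprotein, a pump of bulky and mostly cationic drugs, and lie next to each other on rat chromosome 4. Abcb1b was at 7.42, 7.35 and 7.15 FPKM in PBS, 8.08, 9.30 and 8.05 FPKM in neomycin and 29.6, 27.6 and 29.4 FPKM in cisplatin. The cisplatin libraries were clear of the other 6. The rise with cisplatin was 1.85 ± 0.06 on the log2 scale (limma adjusted p = 4.9e-12), the 77th largest rise of the 10532 genes, and cisplatin stood 1.66 ± 0.06 above neomycin (adjusted p = 9.2e-12). The small rise with neomycin (0.19 ± 0.06, adjusted p = 0.0123) was not called after median-of-ratios scaling (0.14, adjusted p = 0.0568), under quantile normalization (0.12, adjusted p = 0.104) or without neomycin replicate 2 (0.13, adjusted p = 0.0711).

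Abcb1a went the other way. It was at 3.79, 4.26 and 4.16 FPKM in PBS, 1.92, 2.10 and 2.11 FPKM in neomycin and 3.07, 2.82 and 2.77 FPKM in cisplatin. Neomycin libraries were lowest, cisplatin libraries lay between, and no groups overlapped. The fall was -0.74 ± 0.07 with neomycin (limma adjusted p = 4.6e-07) and -0.38 ± 0.07 with cisplatin (adjusted p = 0.0001), and the drugs differed by 0.35 ± 0.07 (adjusted p = 0.0002). In neomycin the ratio of mean FPKM to PBS was 0.502.

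The FPKM ratio of Abcb1b to Abcb1a was thus 1.72 to 1.96 in PBS libraries, 3.81 to 4.43 in neomycin libraries and 9.66 to 10.6 in cisplatin libraries. Their sum was 11.4 ± 0.21 FPKM (SD, n = 3) in PBS, 10.5 ± 0.77 FPKM in neomycin and 31.8 ± 1.19 FPKM in cisplatin. The sum in neomycin overlapped that in PBS, whereas the ratio in neomycin did not. The 2 genes are paralogs, and no source used here says how reads that match both were counted, so the division of reads between them is uncertain.

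The C subfamily pumps, which export glutathione conjugates and other organic anions, were lower with cisplatin or not called. Abcc4 (MRP4), also an exporter of cyclic nucleotides, was at 22.1, 21.4 and 23.0 FPKM in PBS, 11.9, 13.0 and 12.4 FPKM in neomycin and 4.43, 4.47 and 4.43 FPKM in cisplatin. The groups were far apart in the order PBS, neomycin, cisplatin. The fall with cisplatin was -2.09 ± 0.05 (limma adjusted p = 7.4e-13), the 18th largest of 10532 genes. With neomycin it was -0.79 ± 0.05 (adjusted p = 2.9e-08), the 186th largest, and cisplatin stood -1.30 ± 0.05 below neomycin (adjusted p = 2.8e-11).

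Abcc1 (MRP1), the pump first found in drug-resistant lung cancer cells, followed the same order with smaller steps. It read 12.7, 13.5 and 12.7 FPKM in PBS, 10.1, 11.5 and 11.9 FPKM in neomycin and 8.79, 8.21 and 8.08 FPKM in cisplatin. The cisplatin libraries were lowest and the groups did not overlap. The fall with cisplatin was -0.58 ± 0.06 (limma adjusted p = 1.4e-06). That with neomycin (-0.20 ± 0.06, adjusted p = 0.0128) was not called without PBS replicate 2 (-0.17, adjusted p = 0.0547) or without neomycin replicate 1 (-0.14, adjusted p = 0.0655), the neomycin library with the lowest value. The direct difference between the drugs was -0.37 ± 0.06 (adjusted p = 8.7e-05).

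Abcc5 (MRP5), another cyclic nucleotide exporter, was the tested member that cisplatin did not change by the test. It was at 1.86, 2.19 and 2.08 FPKM in PBS, 3.06, 2.67 and 3.13 FPKM in neomycin and 1.90, 1.98 and 1.79 FPKM in cisplatin. Cisplatin and PBS libraries overlapped, and neomycin libraries were above both. The cisplatin value was -0.07 ± 0.07 on the log2 scale (95% interval -0.23 to 0.08, limma adjusted p = 0.36). The rise with neomycin was 0.38 ± 0.07 (adjusted p = 0.0004), and cisplatin stood -0.45 ± 0.07 below neomycin (adjusted p = 4.5e-05).

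**Figure D3:**
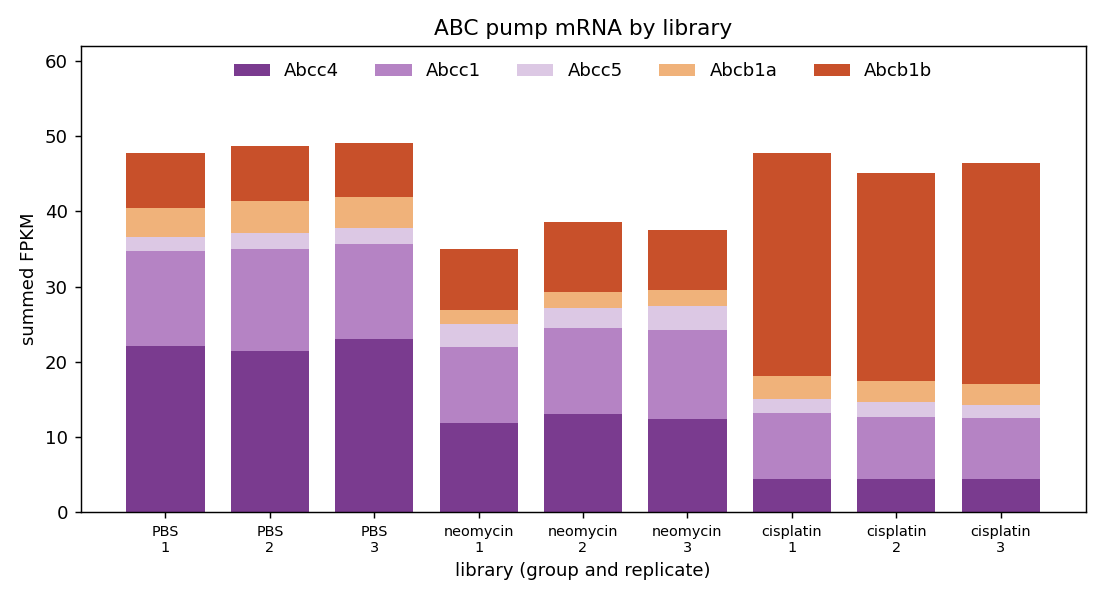
Stacked FPKM of the 5 ABC pump genes in each library. The total is 47.8 to 49.1 FPKM in PBS, 35.0 to 38.6 FPKM in neomycin and 45.1 to 47.8 FPKM in cisplatin, with Abcc4 the largest block in PBS and Abcb1b the largest in cisplatin.

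Summed over the 5 pumps, mRNA was at 48.5 ± 0.65 FPKM (SD, n = 3) in PBS, 37.1 ± 1.86 FPKM in neomycin and 46.5 ± 1.36 FPKM in cisplatin. The totals in PBS and cisplatin were thus close on unscaled FPKM, and the makeup differed, as the stacked plot of pump mRNA shows. Median-of-ratios factors were 0.954 to 0.964 for PBS and 1.05 for cisplatin libraries, so that scaling would set these totals further apart. Abcc4 held 45.7 ± 1.55% of the sum in PBS, 33.5 ± 0.55% in neomycin and 9.57 ± 0.33% in cisplatin. Abcb1b held 14.6 to 15.5% in PBS, 22.9 ± 1.36% in neomycin and 62.2 ± 1.04% in cisplatin. These shares compare FPKM between genes, and the sources disagree on whether rat or mouse gene models were used, so the totals, the shares and their changes depend on each gene's model length and on how well its reads were placed. The 4 copper genes, also unscaled, summed to 52.2 ± 0.81 FPKM in PBS, 58.3 ± 0.50 FPKM in neomycin and 62.3 ± 0.66 FPKM in cisplatin. Most of each sum was Slc31a1.

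The partners of these genes were read from 8 lists. The counts in each list stand against 47.5% higher and 30.5% lower of all tested genes with cisplatin, and 37.5% and 28.7% with neomycin, and the medians against 0.12 and 0.04. Of 15 tested copper chaperone and homeostasis genes 6 rose and 8 fell with cisplatin, with a median log2 fold change of -0.16, and 8 rose and 2 fell with neomycin (median 0.13). The share that rose with cisplatin was near that of all genes. Commd1, a partner of ATP7A and ATP7B in copper export, fell from 16.2 ± 1.67 to 6.35 ± 0.17 FPKM with cisplatin (log2 fold change -1.23 ± 0.07, limma adjusted p = 8.7e-10). The ferroxidase ceruloplasmin, Cp, which receives its copper from ATP7B in liver, fell by 1.35 ± 0.06 on the log2 scale, from 61.7 ± 3.64 to 23.5 ± 0.86 FPKM. The mitochondrial copper chaperone Cox11 rose by 1.26 ± 0.06 and Cox17, which brings copper to that pathway, by 0.60 ± 0.06. Atox1, the chaperone that hands copper to both ATPases, rose from 98.4 ± 2.29 to 114 ± 1.81 FPKM with cisplatin (0.22 ± 0.04), a call lost with median-of-ratios scaling (adjusted p = 0.0977). The metal reductase Steap3 rose by 0.80 ± 0.05 with neomycin and fell by 0.52 ± 0.05 with cisplatin. Of the metallothioneins, which bind copper, zinc and platinum through their cysteines, Mt1 rose with cisplatin from 225 ± 13.2 to 277 ± 3.72 FPKM (0.30 ± 0.06, adjusted p = 0.00022), and Mt2A had a mean under 0.3 FPKM in each group.

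Receptors and partners of megalin were in part lower with cisplatin and mostly higher with neomycin. Of 13 tested genes of this list 3 rose and 6 fell with cisplatin (median -0.10), and 10 rose and 1 fell with neomycin (median 0.27), beside 47.5% higher and 30.5% lower of all tested genes with cisplatin (median 0.12) and 37.5% and 28.7% with neomycin (median 0.04). Median-of-ratios scaling gave 2 and 8 for cisplatin and 8 and 1 for neomycin. Lrp1, the large scavenger receptor related to megalin, fell from 71.5 ± 3.52 to 20.1 ± 1.79 FPKM with cisplatin (-1.78 ± 0.06, limma adjusted p = 8e-12) and rose to 100.5 ± 3.42 FPKM with neomycin (0.49 ± 0.06). Dab2, the adaptor that links the tail of megalin to the clathrin coat, fell with cisplatin from 84.9 ± 10.6 to 35.4 ± 1.39 FPKM (-1.23 ± 0.08), and Lrp4 by 1.12 ± 0.06 on the log2 scale. Lrpap1, the chaperone that keeps megalin free of ligand while it is made, rose with neomycin by 0.68 ± 0.05. Cubn, for the co-receptor cubilin, was under the filter, at 0.275 to 0.323 FPKM in PBS, 0.478 to 0.590 FPKM in neomycin and 0.0614 to 0.0746 FPKM in cisplatin. Of 5 markers of the proximal tubule, where megalin is best known, Slc34a1 was at 0 in PBS and neomycin and Slc5a2 had a mean under 0.05 FPKM in each group, while Aqp1 averaged 8.17 ± 1.25 FPKM in PBS, 32.3 ± 2.21 FPKM in neomycin and 4.80 ± 0.63 FPKM in cisplatin.

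**Figure D4:**
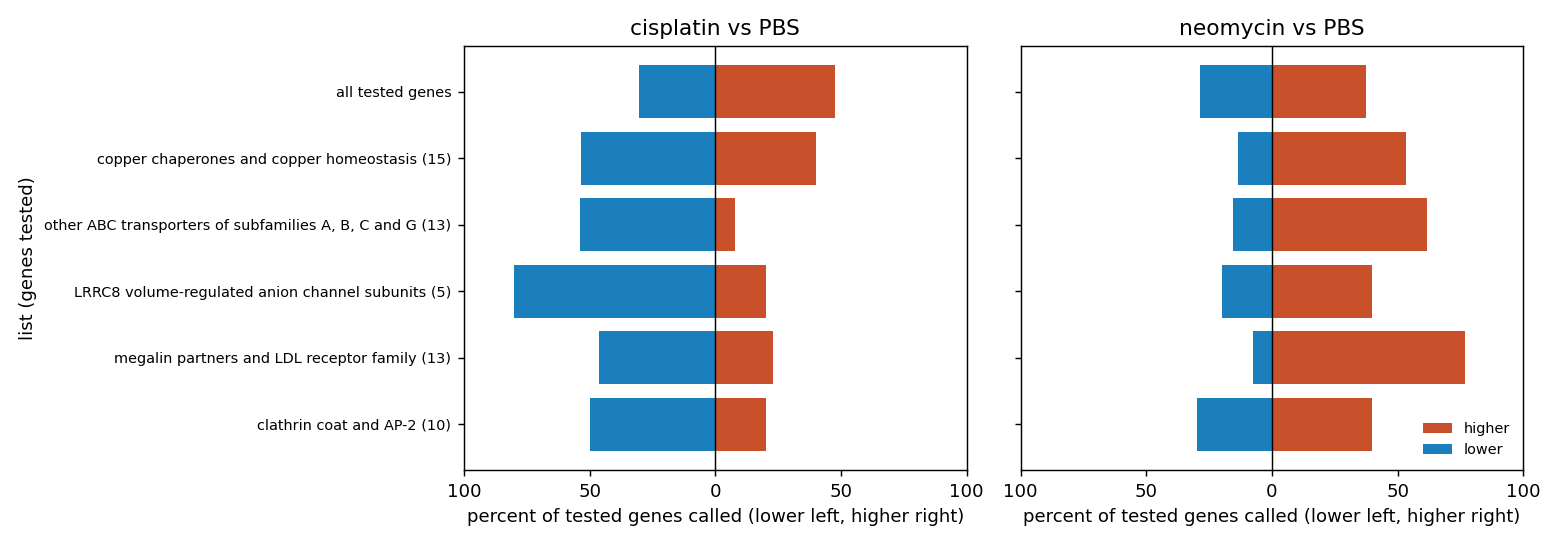
Percent of tested genes called higher (right) and lower (left) against PBS in the 5 lists with at least 5 tested genes, beside all tested genes (top bars), with the number tested in brackets. Each list lies to the lower side of all genes with cisplatin, and with neomycin 10 of 13 genes of the megalin list and 8 of 13 other ABC transporters are higher (8 of 13 in both lists under either scaling alternative).

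Coat genes for clathrin-mediated uptake gave 2 higher and 5 lower of 10 with cisplatin (median -0.22) and 4 higher and 3 lower with neomycin (median 0.09). The neomycin counts are near the shares of all tested genes (37.5% higher and 28.7% lower), and those of all genes with cisplatin are 47.5% and 30.5%. Both scaling alternatives gave 2 and 8 for cisplatin. The light chain Cltb rose by 1.02 ± 0.07 with cisplatin, while the AP-2 subunit Ap2m1 fell from 432 ± 9.67 to 341 ± 6.51 FPKM (-0.34 ± 0.04). Larger falls with cisplatin were those of Ap2a2 (-0.87 ± 0.04), Cltc (-0.73 ± 0.05), Ap2b1 (-0.56 ± 0.04) and Dnm2 (-0.42 ± 0.05). The small AP-2 subunit Ap2s1 rose by 0.38 ± 0.05 with cisplatin and by 0.29 ± 0.05 with neomycin.

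Other ABC transporters of the A, B, C and G subfamilies had 13 tested genes of 32 matched. With cisplatin 1 rose and 7 fell (median -0.17), and with neomycin 8 rose and 2 fell (median 0.25), beside 47.5% higher and 30.5% lower of all tested genes with cisplatin (median 0.12) and 37.5% and 28.7% with neomycin (median 0.04). The single rise with cisplatin, that of the peptide transporter Tap1 (0.13 ± 0.06, limma adjusted p = 0.0466), was lost in most alternatives, as after median-of-ratios scaling (0.0056, adjusted p = 0.93). Its partner Tap2 rose by 0.36 ± 0.07 with neomycin. Abca2, a lipid transporter of late endosomes and lysosomes, rose by 0.77 ± 0.07 with neomycin and fell by 0.57 ± 0.07 with cisplatin, and Abca9 rose by 0.47 ± 0.06 and fell by 0.58 ± 0.06 likewise.

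LRRC8 proteins form the volume-regulated anion channel, which admits cisplatin in human cells. Of 5 subunits 4 fell and 1 rose with cisplatin (median -0.28), and 2 rose and 1 fell with neomycin (median 0.07, and -0.0065 under quantile normalization). Of all tested genes 30.5% fell and 47.5% rose with cisplatin, and the neomycin counts are near the 37.5% higher and 28.7% lower of all genes. The obligatory subunit Lrrc8a fell from 13.2 ± 0.76 to 10.7 ± 0.19 FPKM with cisplatin (-0.28 ± 0.06, limma adjusted p = 0.00081). The largest fall was that of Lrrc8d, from 3.67 ± 0.38 to 1.38 ± 0.11 FPKM (-0.97 ± 0.07, limma adjusted p = 2.6e-08), followed by Lrrc8c (-0.69 ± 0.08). Lrrc8d was also the subunit that fell with neomycin (-0.36 ± 0.07). Lrrc8b rose by 0.55 ± 0.08 with neomycin and fell by 0.25 ± 0.08 with cisplatin, the latter not called without PBS replicate 3 (adjusted p = 0.0556).

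Most carriers for organic cations had very low values. Of 7 matched genes 6 had a mean under 0.1 FPKM, among them Slc22a2, the renal cisplatin carrier OCT2, listed at 0 in all PBS and neomycin libraries. The carnitine carrier Slc22a5 was the tested gene of this list, and it rose by 0.31 ± 0.07 with cisplatin and fell by 0.36 ± 0.07 with neomycin. Of 7 matched genes of the hair cell transduction and TRP channel routes 6 had a mean under 0.1 FPKM, with the channel subunit Tmc1 at most 0.0492 FPKM in any library. Cib2, a calcium-binding partner of that channel, was tested and rose from 1.82 ± 0.30 to 3.12 ± 0.28 FPKM with neomycin (0.55 ± 0.09, limma adjusted p = 0.00015). With cisplatin it was at 1.39 ± 0.22 FPKM (-0.24 ± 0.09, adjusted p = 0.0286), a call also lost without a filter (adjusted p = 0.0883), with voom (0.081) and without PBS replicate 1, PBS replicate 2 or cisplatin replicate 3 (adjusted p = 0.0933, 0.103 and 0.14).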

How the data were processed

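RNA was measured in 9 libraries, 3 per group, grouped and numbered by the sample titles. The deposited table gives FPKM values computed by the authors, as its file name states, and per the labels' protocols libraries came from an mRNA kit. No source used here names an aligner, a counter or a strand setting. Each sample's cell-line label ends in its own number, but they were treated as the single line HEI-OC1 of the series design. The submitters' processing notes name the build mm10, whereas the labels and annotation columns are those of rat, and 18532 gene identifiers (94.5%) were found in a rat table of GRCr8. Whole reads were recovered from the FPKM steps for 19608 genes within 0.001 of a read.

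Genes whose mean reached 1 FPKM were tested with limma 3.58.1 (R 4.3.3) on log2(FPKM + 1), with 1 mean per group, all 9 libraries and a mean-variance trend, and Benjamini-Hochberg adjustment over 10532 genes at a threshold of 0.05. The test was also run on simulated counts with the same spread setting for every gene and few changed genes. Those settings differ from these data, so that run lends no support to the calls here. Members and lists were chosen with earlier results of these data known, so lists have no test. Named list genes were called at least 2-fold (up to 4 per list and comparison) or were the 2 most abundant of their list. Some others (Cubn, Slc22a2, Tmc1, Lrrc8c, Lrrc8d, Cltc, Ap2a2, Ap2b1, Dnm2) were chosen after their values were seen. Alternatives were a pseudocount of 0.1, no filter, median-of-ratios scaling, quantile normalization, voom on recovered reads, a replicate block, only the compared groups and leaving out each library.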

Additional observations from a re-analysis of the deposited data

How the results depend on the processing

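Over 17 alternatives for each of 27 member fold changes, 451 of 459 values kept direction and side of the threshold, 7 kept direction and lost the call, and 1 turned. The turned value was that of Slc31a1 between cisplatin and neomycin under quantile normalization (-0.031). The lost calls were those of Slc31a1, of Abcb1b with neomycin and of Abcc1 with neomycin, given with their values above. Under quantile normalization Tap1 turned for cisplatin against PBS (-0.018), and Atox1 (-0.16) and Ap2s1 (-0.13) turned for cisplatin against neomycin. The cause was not tested. Counts of all genes called stayed within 1.5 times, and the largest counts came from voom with no filter, which tests more genes (10252 for cisplatin and 7771 for neomycin against PBS). Leaving out 1 library gave 7848 to 8268 calls for cisplatin and 6447 to 6851 for neomycin. For neomycin the members called higher then numbered 3 to 4, as did those called lower. The titles share replicate numbers, but same-numbered libraries of different groups correlated between -0.046 and 0.304 in their deviations from group means, and not every library correlated best with its own number, so the numbers were not taken as pairs. The replicate block gave 8424 calls for cisplatin and 7261 for neomycin against PBS and 8746 between the drugs, and changed no call of a member. Depth limits Atp7b most, with 18 to 25 reads per cisplatin library.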
